A study of Mus musculus with 12 samples.

Results

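The complement receptors and regulators described here are 7 mouse genes, C5ar1, C3ar1, Itgam, Itgb2, Cd59a, Cd55 and Serping1. They were taken by symbol from a table of read counts, and all 7 had a row among its 13124 genes. RNA came from whole, saline-perfused kidneys of male C57BL/6 mice, with all cell types together, so that fewer cells of a type and less RNA per cell cannot be told apart. The 4 groups held 3 kidneys each. Kidneys 1 to 3 came from untreated mice, taken 24 h after a sham operation. The other 9 were taken 24 h after unilateral warm ischaemia-reperfusion injury (IRI), in which blood flow to a kidney is stopped and restored. Those mice had received a monoclonal antibody 24 h before the injury. It was an isotype control for kidneys 4 to 6 (treatment code Iso), an antibody against G-CSFR, the receptor of the neutrophil growth factor G-CSF, for kidneys 7 to 9 (code VR81), and an antibody against complement protein C5 for kidneys 10 to 12 (code BB5.1). Sham mice received no antibody, so a difference between isotype and sham kidneys joins the injury with the antibody injection. Nothing in the labels says whether the kidney taken after IRI was in every case the injured one.

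Complement is a cascade of plasma proteins that coats targets with fragments of C3, releases the small signalling peptides C3a and C5a, and ends in a pore in the target membrane. C5a and C3a act on the receptors C5aR1 and C3aR, and C3 fragments on a surface are bound by complement receptor 3, an integrin built from the chains CD11b (Itgam) and CD18 (Itgb2) and carried mainly by neutrophils, monocytes and macrophages. Host cells hold the cascade back with membrane proteins such as CD55 and CD59, and plasma with inhibitors such as C1 inhibitor (Serping1), and in the kidney after ischaemia complement is known to be activated along the tubules.

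Levels are given in CPM, the usual scaling of read counts by library total, here with edgeR's TMM factors, and as mean ± SD over 3 kidneys, with single kidneys in order of their number. A gene is said to have risen or fallen only where the Benjamini-Hochberg (BH) adjusted p of edgeR's quasi-likelihood test over all 13124 genes was below 0.05. Changes are on the log2 scale with their standard error (SE). The libraries held 13200930 to 16324215 counts. The kidney was recognisable from its markers: all 10 proximal tubule markers on the list had a row, with Kap at 23690 and Slc34a1 at 2670 CPM over the 12 kidneys, and none of 11 lymphocyte markers had one. Kidneys 9 and 11 stood apart from the others of their groups in their summed tubule injury markers (10 of 10 measured). The sum was 1909 CPM in kidney 9 and 4107 in kidney 11, against 571 to 707 in the other 4 anti-G-CSFR and anti-C5 kidneys, 575 to 712 in sham and 10860 to 11610 in isotype kidneys. Over all genes, isotype kidney 4 stood apart as well. Its chi-square per degree of freedom was 46.1 and 48.4 against kidneys 5 and 6, and that between kidneys 5 and 6 was 5.46. Among the 7 genes, leaving out kidney 4 alone changed only the call of Serping1 in isotype against sham. Where leaving out kidneys 9 and 11 changed a call or count below, the value without them is given. That was chosen after the values were seen for genes other than the 7.

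Against sham, the isotype group had 3 of the 7 genes higher, C5ar1, Itgam and Itgb2, and 2 lower, Cd59a and Cd55. Of all genes, 32.1% rose and 30.7% fell in this comparison, so most of the transcriptome moved and the count of 5 is no mark of these genes in particular. Under anti-G-CSFR against isotype, 2 of the 7 rose (Cd59a and Cd55) and 4 fell (C5ar1, Itgam, Itgb2 and Serping1), beside 31.5% of all genes that rose and 32% that fell. Under anti-C5 against isotype, the same 2 genes rose and 2 fell (Itgam and Serping1), beside 30.5% and 29.8% of all genes. With kidneys 9 and 11 left out, 2 rose and 4 fell, C5ar1 and Itgb2 in addition, beside 31.6% and 30.5%. The median change of the 7 genes was 0.42, -0.55 and -0.64 in these comparisons, and that of all genes 0.03, -0.02 and -0.01. With library totals in place of TMM factors the median of all genes became 0.23, -0.23 and -0.19, and the share of calls that were higher went from 51% to 64.3%, from 49.6% to 35.9% and from 50.6% to 37.8%. Under that scaling each of the called members kept its direction and its call, and Serping1 in isotype against sham and Itgb2 in anti-C5 against isotype passed as well. The 2 antibody comparisons share the 3 isotype kidneys, so their values are given side by side and not as independent of each other. These shares of all genes also stand beside every count of listed genes below, and no list was tested against them. Without kidneys 9 and 11, 32.4% rose and 31.6% fell in isotype against sham, and 32.4% and 31.3% under anti-G-CSFR against isotype.

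**Figure D1:**
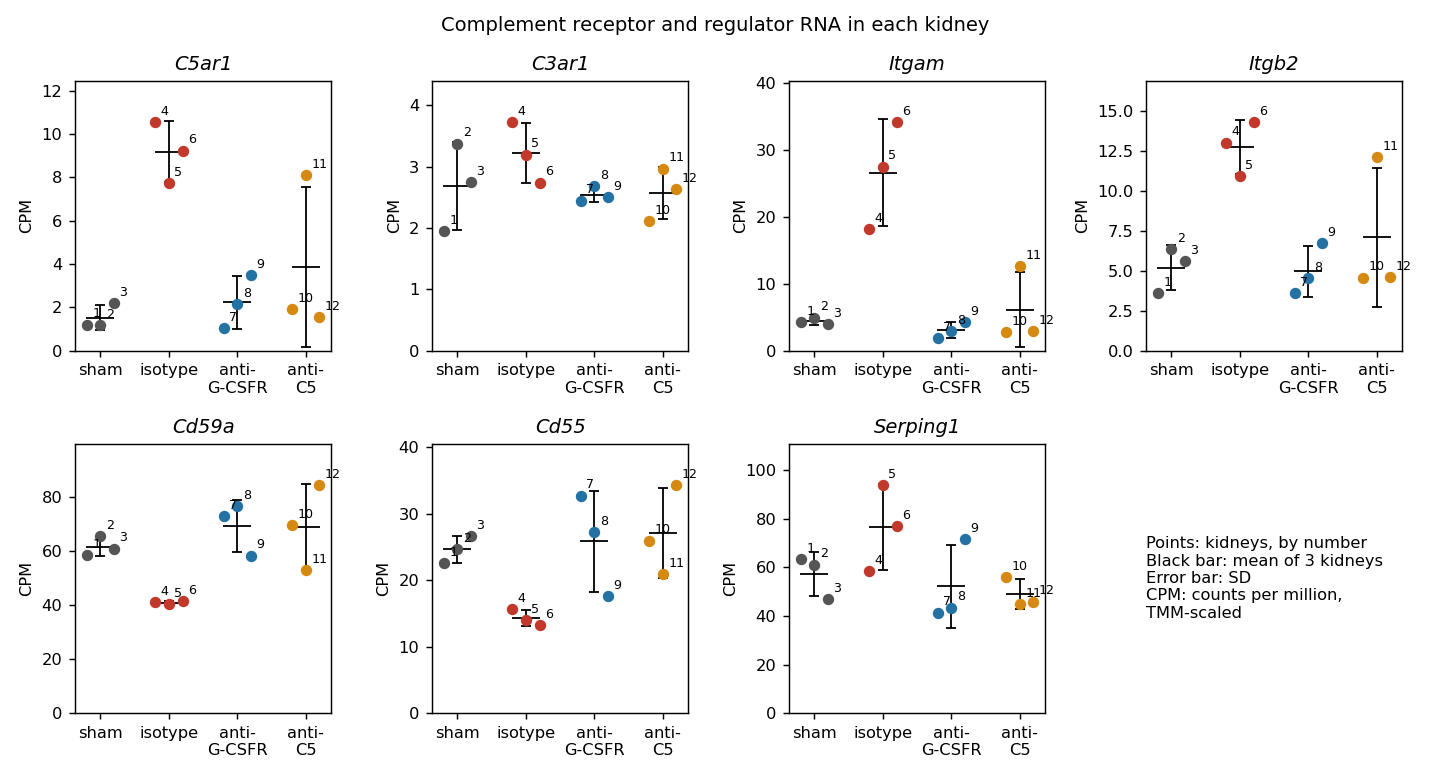
Level of each of the 7 genes in every kidney, in CPM (vertical axes, from 0) by group (horizontal axes), with kidney numbers beside the points, black bars for the mean of 3 kidneys and error bars for the SD. The isotype kidneys lie above sham for C5ar1, Itgam and Itgb2 and below sham for Cd59a and Cd55, and kidney 11 lies far above the other 2 anti-C5 kidneys for those first 3 genes.

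C5ar1 (Entrez 12273, GRCm38 chromosome 7, 16246743 to 16259540, minus strand, protein-coding) encodes the main signalling receptor for C5a, found on neutrophils and other myeloid cells. It was measured at 1.21, 1.17 and 2.19 CPM in the sham kidneys and at 10.6, 7.74 and 9.24 CPM in the isotype kidneys. Under anti-G-CSFR it was 1.06, 2.16 and 3.48 CPM, and under anti-C5 1.90, 8.10 and 1.55 CPM. Every isotype kidney was thus above every sham and every anti-G-CSFR kidney, while 1 of the 3 anti-C5 kidneys, kidney 11, lay inside the isotype range. These levels rest on few reads, 16 to 190 counts per library.

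C5ar1 rose 6.02-fold in isotype against sham (log2 change 2.59 ± 0.58 SE, edgeR BH-adjusted p = 0.00227) and fell 4.14-fold under anti-G-CSFR against isotype (log2 -2.05 ± 0.56, edgeR adjusted p = 0.00749). Under anti-C5 the difference from isotype was -1.25 ± 0.54 and missed the threshold (edgeR adjusted p = 0.0613), with a 95% confidence interval from -2.42 to -0.08. Without kidney 11 that difference was -2.40 and passed (edgeR adjusted p = 0.000435), and DESeq2 and limma-voom called it with all 12 libraries (adjusted p = 0.0419 and 0.00824; range over 21 alternatives 0.000145 to 0.192). In order of mean level the groups ran isotype (9.18 ± 1.41 CPM), anti-C5 (3.85 ± 3.69), anti-G-CSFR (2.23 ± 1.21) and sham (1.52 ± 0.58), and the 3 lower groups overlapped each other.

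C3ar1 (Entrez 12267, chromosome 6, 122847138 to 122856161, minus strand) encodes the receptor for C3a. It was at 1.94, 3.37 and 2.74 CPM in sham, 3.72, 3.19 and 2.74 in isotype, 2.44, 2.69 and 2.50 under anti-G-CSFR, and 2.12, 2.97 and 2.63 under anti-C5. The kidneys of all 4 groups lay within a narrow band, and the lowest isotype kidney was level with the middle sham kidney. The 3 anti-G-CSFR kidneys all lay just below the isotype kidneys. No comparison passed the test. The difference between isotype and sham was 0.26 ± 0.24 (95% confidence interval -0.25 to 0.78, edgeR adjusted p = 0.348), and those of anti-G-CSFR and anti-C5 from isotype were -0.34 and -0.33 (edgeR adjusted p = 0.226 and 0.251). The first interval leaves room for a change of up to 0.78, but not for one of the size seen in C5ar1. Its counts ran from 29 to 67 per library.

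Itgam (Entrez 16409, chromosome 7, 128062640 to 128118491, plus strand) encodes CD11b, the chain that gives complement receptor 3 its ligand-binding domain. It was at 4.22, 4.93 and 3.97 CPM in sham kidneys and at 18.2, 27.5 and 34.2 CPM in isotype kidneys. Under anti-G-CSFR it was 1.85, 2.98 and 4.24 CPM, and under anti-C5 2.82, 12.7 and 2.94 CPM. No kidney of the other groups reached the lowest isotype kidney. Kidney 11 lay between the sham and isotype ranges.

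Among the 7 genes, Itgam showed the largest called changes in these 3 comparisons, with that of C5ar1 in isotype against sham close to it. It rose 6.06-fold in isotype against sham (log2 2.60 ± 0.50, edgeR adjusted p = 0.000817). It fell 8.84-fold under anti-G-CSFR (log2 -3.14 ± 0.52, edgeR adjusted p = 0.000319) and 4.32-fold under anti-C5 (log2 -2.11 ± 0.49, edgeR adjusted p = 0.00295), and without kidney 11 the last change was -3.20 (edgeR adjusted p = 1.37e-05; range over 21 alternatives 8.27e-06 to 0.0173). Its levels ran isotype (26.6 ± 8.03 CPM), anti-C5 (6.14 ± 5.65), sham (4.38 ± 0.50) and anti-G-CSFR (3.02 ± 1.19), and each of the last 3 overlapped its neighbour. Exons of Itgam overlap those of Gm49368, a protein-coding gene model on the same strand that had no row in the table, so the Itgam count may miss or include reads of that model.

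Itgb2 (Entrez 16414, chromosome 10, 77530252 to 77565708, plus strand) encodes CD18, the chain shared by all leukocyte integrins of this family. It was at 3.62, 6.36 and 5.62 CPM in sham, 13.1, 10.9 and 14.3 in isotype, 3.63, 4.55 and 6.73 under anti-G-CSFR, and 4.59, 12.2 and 4.64 under anti-C5. The isotype kidneys lay above all sham and anti-G-CSFR kidneys, and kidney 11 again lay among them. Itgb2 rose 2.45-fold in isotype against sham (log2 1.29 ± 0.37, edgeR adjusted p = 0.00856) and fell 2.58-fold under anti-G-CSFR (log2 -1.36 ± 0.37, edgeR adjusted p = 0.00669). Under anti-C5 the difference was -0.84 ± 0.36 (edgeR adjusted p = 0.0604), and without kidney 11 it was -1.47 (edgeR adjusted p = 0.000873). With all 12 libraries DESeq2 and limma-voom called it (adjusted p = 0.041 and 0.0173; range over 21 alternatives 0.000383 to 0.2). Its levels ran isotype (12.8 ± 1.72 CPM), anti-C5 (7.13 ± 4.35), sham (5.20 ± 1.42) and anti-G-CSFR (4.97 ± 1.59), and the last 3 overlapped.

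**Figure D2:**
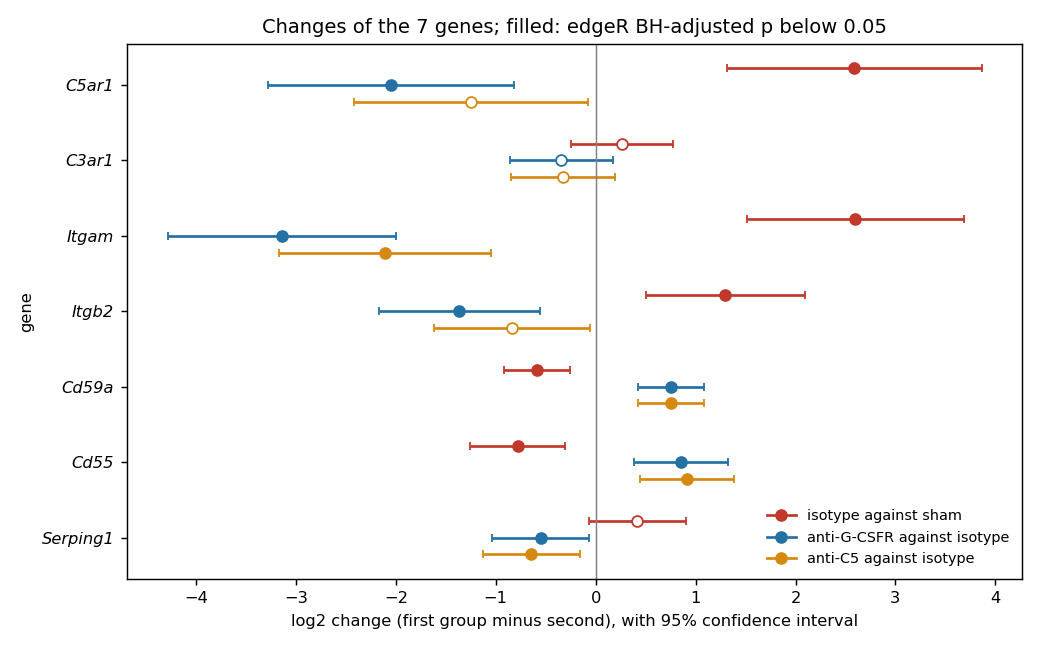
Log2 change of each gene (vertical axis) in the 3 comparisons with the isotype group (horizontal axis, first group minus second), with 95% confidence intervals, where filled points passed the edgeR test at an adjusted p below 0.05. C5ar1, Itgam and Itgb2 have positive changes in isotype against sham and negative ones under both antibodies, and Cd59a and Cd55 show the opposite signs.

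Those neutrophil markers that had a row moved with these 3 genes. Of 18 on the list 12 had a row, and all 12 rose in isotype against sham and fell under anti-G-CSFR, while 4 of 12 fell under anti-C5 against isotype. All 12 fell under anti-C5 too without kidneys 9 and 11, beside 30.5% of all genes in that fit. These counts are no test, because every gene of the table has a third-highest CPM of at least 2.01. Trem1, Clec4d and Cxcr2 reached at most 0.07, 0.20 and 0.52 CPM in sham and 0.15, 0.08 and 0.13 under anti-G-CSFR. Such markers have a row only through the other groups, so their direction was largely fixed beforehand. S100a9 and Lcn2 were above 2.01 CPM in all sham kidneys (lowest 3.22 and 13.7). The list includes Lcn2, which injured tubule cells also make, and without it the other 11 summed to 8.84 to 11.3 CPM in sham kidneys, 107, 57.7 and 146 CPM in kidneys 4, 5 and 6, and 2.39 to 3.50 CPM under anti-G-CSFR. With Lcn2 the full list summed to 23.4 to 26.7, 1125 to 2919, 13.2 to 158 and 27.1 to 414 CPM in sham, isotype, anti-G-CSFR and anti-C5 kidneys. Under anti-C5 the sum of the 11 was 8.96 CPM in kidney 10, 133 CPM in kidney 11 and 14.2 CPM in kidney 12. Clec4e was at 0 in all 3 anti-G-CSFR kidneys. The part of these markers in the changes of C5ar1, Itgam and Itgb2 was not tested.

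Kidney 11, with a sum inside the isotype range, was placed on a log2 scale on which the mean of the sham kidneys is 0% and that of the isotype kidneys 100%. It stood at 93.4% for C5ar1 and at 95.2% for Itgb2, but at 59.8% for Itgam. Among the isotype kidneys, kidney 5 had the lowest sum and also the lowest C5ar1 and Itgb2, while the lowest Itgam was in kidney 4. The anti-G-CSFR kidneys had sums below every sham kidney. Of their C5ar1 levels, that of kidney 7 was below the sham range, that of kidney 8 inside it and that of kidney 9 above it. Kidney 9 stood at 46.6% of that scale for C5ar1 and at -1.57% for Itgam, with a neutrophil sum of 3.25 CPM.

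**Figure D3:**
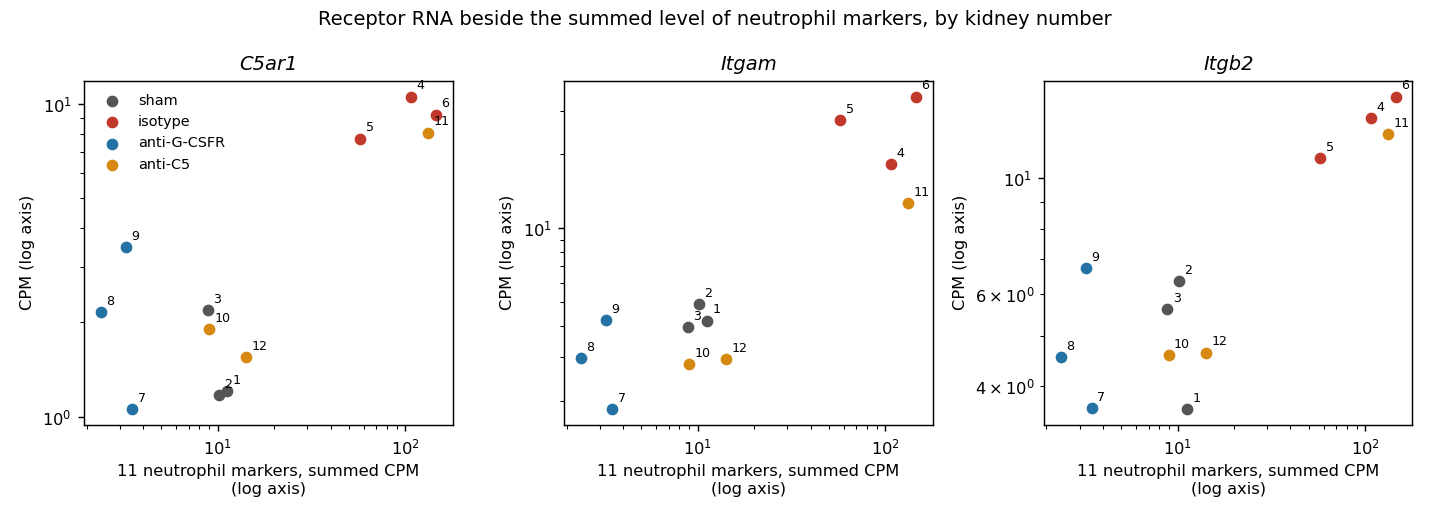
Level of C5ar1, Itgam and Itgb2 in each kidney (vertical axes, CPM, log scale) against the summed level of 11 neutrophil markers without Lcn2 (horizontal axis, CPM, log scale), with kidney numbers beside the points. Kidney 11 lies with the isotype kidneys 4 to 6 for C5ar1 and Itgb2 and below them for Itgam, and kidneys 7 to 9 lie at the lowest marker sums.

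Markers of monocytes and macrophages, the other main carriers of these receptors, moved less uniformly. Of 16 listed 15 had a row, and in isotype against sham 4 rose and 1 fell, beside 32.1% and 30.7% of all genes. Under anti-G-CSFR 2 rose and 5 fell, beside 31.5% and 32%, and under anti-C5 3 rose and 4 fell, beside 30.5% and 29.8%. Their sum ran from 146 to 194 CPM in sham, 234 to 285 in isotype, 158 to 185 under anti-G-CSFR and 191 to 273 under anti-C5. The 4 that rose were Cd68, Fcgr3, Cd14 and Tyrobp. Cd68, a lysosomal protein of macrophages, went from 3.80 ± 0.72 CPM in sham to 27.7 ± 2.70 in isotype (log2 2.86 ± 0.28, edgeR adjusted p = 1.05e-05), and Cd14, the endotoxin co-receptor, from 7.14 ± 1.59 to 56.6 ± 11.5 CPM (log2 2.98 ± 0.55, edgeR adjusted p = 0.000654). Fcgr3, an Fc receptor, rose by 1.65 ± 0.26 and Tyrobp, a signalling adaptor, by 1.16 ± 0.35 (edgeR adjusted p = 0.000236 and 0.0116). Cd68, Cd14 and Fcgr3 fell under both antibodies, as did C5ar1, Itgam and Itgb2 under anti-G-CSFR and Itgam under anti-C5. Csf1r, the growth factor receptor of macrophages, fell in isotype against sham (log2 -0.67 ± 0.17, edgeR adjusted p = 0.00397), with means of 50.9 ± 7.41 and 32.0 ± 1.01 CPM. Under anti-G-CSFR and anti-C5 its means were 44.2 and 48.7 CPM. Adgre1, Cx3cr1 and Aif1 also had their lowest mean in isotype kidneys. In sham, isotype, anti-G-CSFR and anti-C5 the means were 6.89, 5.14, 7.33 and 7.77 CPM for Adgre1. They were 8.21, 4.56, 8.03 and 9.24 CPM for Cx3cr1, and 1.74, 1.00, 2.82 and 2.68 CPM for Aif1. None of these 3 was called in isotype against sham (edgeR adjusted p = 0.141, 0.174 and 0.188). Lyz2, the lysozyme of myeloid cells, was at 23.2 ± 3.55 CPM in sham and 40.3 ± 17.5 CPM in isotype (log2 0.80 ± 0.33, edgeR adjusted p = 0.0501, and 0.0179 without kidneys 9 and 11). Without those kidneys 5 of the 15 rose in isotype against sham, and 1 rose and 4 fell under each antibody. The part of these cells in the receptor values was not tested.

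The balance of the integrin chains was followed per kilobase of exon. The ratio of Itgam to Itgb2 within a kidney was 0.54 ± 0.15 in sham, 1.27 ± 0.37 in isotype, 0.36 ± 0.05 in anti-G-CSFR and 0.46 ± 0.15 in anti-C5 kidneys. Every isotype kidney (0.85 to 1.53) was above every other kidney (0.31 to 0.71), kidney 11 included at 0.63. The shared exons of Gm49368 bear on this ratio too. Itgax, which encodes CD11c, the chain that forms complement receptor 4 with CD18, was at 4.15 ± 0.88, 4.11 ± 2.48, 4.26 ± 0.49 and 4.97 ± 1.77 CPM in sham, isotype, anti-G-CSFR and anti-C5. It was called in none of the 3 comparisons with isotype (edgeR adjusted p = 0.991, 0.929 and 0.55), and its ratio to Itgb2 per kilobase was 0.52 ± 0.08, 0.20 ± 0.12, 0.57 ± 0.13 and 0.49 ± 0.10.

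The ratio of C5ar1 to C3ar1 per kilobase was 0.99 ± 0.38 in sham, 4.82 ± 0.80 in isotype, 1.47 ± 0.81 in the anti-G-CSFR group and 2.36 ± 1.94 in the anti-C5 group. Of the anti-C5 kidneys only kidney 11, at 4.58, lay in the isotype range. Each of the 3 ratios was compared in the 3 comparisons with isotype, 9 tests in all. In 8 of them the groups did not overlap, with an exact two-sided permutation p of 0.1 (BH-adjusted p = 0.113), which is the smallest this test can give for 3 against 3 kidneys. The exception was C5ar1 to C3ar1 under anti-C5 against isotype (exact permutation p = 0.2, BH-adjusted p = 0.2). The test could not reach 0.05, so the ratios are given as a description. C3ar1 and Itgax were called in no comparison with isotype, so ratios that include them largely repeat the changes of C5ar1 and Itgb2. How often groups do not overlap for other pairs of genes was not counted.

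**Figure D4:**
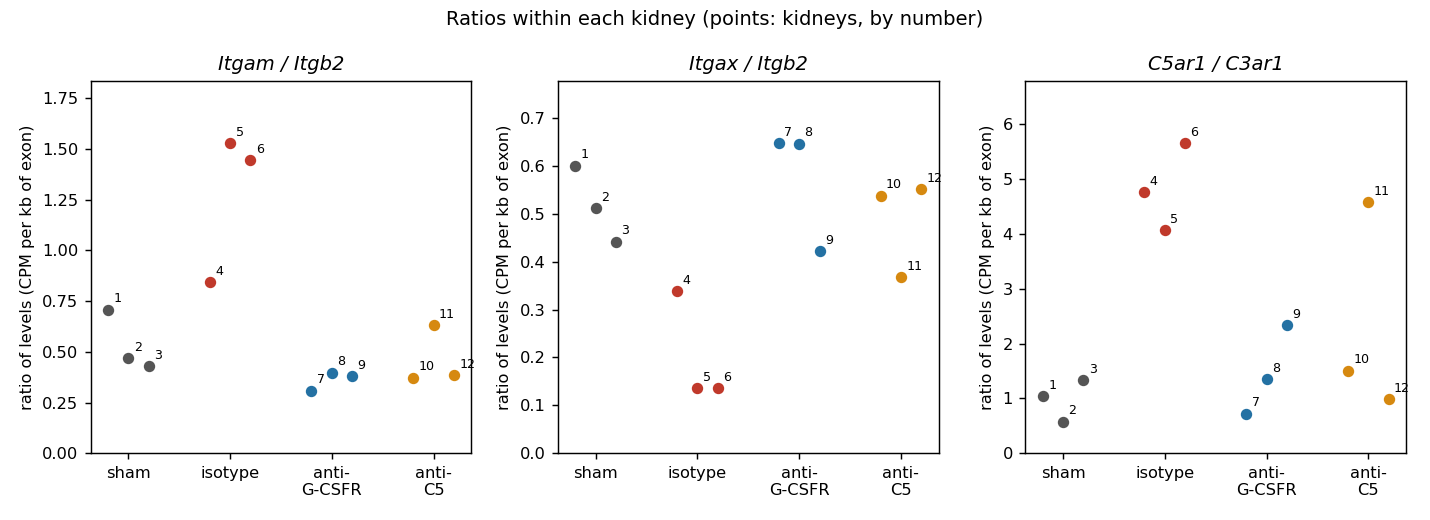
Ratios of Itgam to Itgb2, Itgax to Itgb2 and C5ar1 to C3ar1 in each kidney (vertical axes, ratio of CPM per kilobase of exon, from 0) by group (horizontal axes), with kidney numbers beside the points. Itgam to Itgb2 is 0.85 to 1.53 in the isotype kidneys and at most 0.71 elsewhere, and kidney 11 reaches the isotype range only for C5ar1 to C3ar1.

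The membrane regulators Cd59a and Cd55 changed in the direction opposite to C5ar1, Itgam and Itgb2. Cd59a (Entrez 12509, chromosome 2, 104095801 to 104115354, plus strand) encodes CD59, which blocks the last step of pore assembly. It was at 58.8, 65.7 and 61.0 CPM in sham kidneys and at 41.1, 40.4 and 41.6 CPM in isotype kidneys. Under anti-G-CSFR it was 73.0, 76.7 and 58.5 CPM, and under anti-C5 69.6, 52.9 and 84.7 CPM. All 3 isotype kidneys lay below all 9 others. The lowest of the antibody-treated kidneys were kidneys 9 and 11, both above isotype.

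Cd59a fell 1.51-fold in isotype against sham (log2 -0.59 ± 0.15, edgeR adjusted p = 0.00493). It rose 1.69-fold under anti-G-CSFR (log2 0.76 ± 0.15, edgeR adjusted p = 0.00107) and 1.68-fold under anti-C5 (log2 0.75 ± 0.15, edgeR adjusted p = 0.0013) against isotype. Its levels ran anti-G-CSFR (69.4 ± 9.63 CPM), anti-C5 (69.1 ± 15.9), sham (61.8 ± 3.51) and isotype (41.0 ± 0.62), and the first 3 overlapped. Cd59b, a near copy of Cd59a, went the same way at a far lower level, 2.07 ± 0.21 CPM in sham and 0.71 ± 0.38 CPM in isotype (log2 -1.52 ± 0.42, edgeR adjusted p = 0.00719). How the counting divided reads that match both copies is not given in the sources used here, so the values of each are uncertain to that extent.

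Cd55 (Entrez 13136, chromosome 1, 130439027 to 130462744, minus strand) encodes decay-accelerating factor, which takes apart the enzymes that cleave C3 and C5. It was at 22.6, 24.7 and 26.6 CPM in sham, 15.6, 14.1 and 13.3 in isotype, 32.7, 27.2 and 17.6 under anti-G-CSFR, and 25.96, 20.9 and 34.3 under anti-C5. Again the isotype kidneys were below all the others, and kidneys 9 and 11 were the lowest of their groups. Cd55 fell 1.72-fold in isotype against sham (log2 -0.78 ± 0.22, edgeR adjusted p = 0.0077). It rose 1.81-fold under anti-G-CSFR (log2 0.85 ± 0.22, edgeR adjusted p = 0.00468) and 1.89-fold under anti-C5 (log2 0.92 ± 0.22, edgeR adjusted p = 0.00339). Its levels ran anti-C5 (27.1 ± 6.78 CPM), anti-G-CSFR (25.9 ± 7.63), sham (24.6 ± 2.00) and isotype (14.3 ± 1.20), and the first 3 overlapped. Exons of Cd55 overlap those of the antisense gene Gm16083, and since the strand setting of the counting is not given, reads of the 2 cannot be told apart here. The similar gene Cd55b had no row.

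Markers of working tubules moved with Cd59a and Cd55. All 10 proximal tubule markers fell in isotype against sham and rose under each antibody, and their sum was 36740 to 41450 CPM in sham, 10860 to 17530 in isotype, 29390 to 50670 under anti-G-CSFR and 29230 to 52270 under anti-C5. Kidneys 9 and 11 held the lowest sums of their groups. Of 6 loop and distal tubule markers 5 fell in isotype against sham and 5 rose under each antibody, and of 6 collecting duct markers 5 fell and 1 rose in isotype against sham and 5 rose under each antibody. Without kidneys 9 and 11, Cd59a and Cd55 had log2 changes of 0.89 and 1.09 under anti-G-CSFR (edgeR adjusted p = 3.31e-05 and 9.47e-05) and of 0.93 and 1.09 under anti-C5 (edgeR adjusted p = 2.56e-05 and 9.94e-05). The part of tubule content in the values of these regulators was not tested.

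Serping1 (Entrez 12258, chromosome 2, 84765387 to 84775444, minus strand) encodes C1 inhibitor, the plasma protein that blocks the proteases starting the classical and lectin pathways. It was at 63.5, 61.2 and 46.9 CPM in sham, 58.6, 93.9 and 76.9 in isotype, 41.4, 43.5 and 71.6 under anti-G-CSFR, and 56.0, 44.8 and 45.9 under anti-C5. The isotype kidneys overlapped the sham and anti-G-CSFR kidneys and lay above all anti-C5 kidneys. The difference between isotype and sham, 0.42 ± 0.22, missed the threshold (edgeR adjusted p = 0.119; range over 21 alternatives 0.0378 to 0.397). It passed without isotype kidney 4 (edgeR adjusted p = 0.0413) and with scaling by library totals alone (0.0378).

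Serping1 fell 1.47-fold under anti-G-CSFR (log2 -0.55 ± 0.22, edgeR adjusted p = 0.0466) and 1.56-fold under anti-C5 (log2 -0.64 ± 0.22, edgeR adjusted p = 0.0258) against isotype. Both calls were close to the threshold. The first was lost in 10 of 21 alternatives: without kidney 1, 2, 5, 6, 7, 8, 10 or 12 (edgeR adjusted p from 0.0529 to 0.19), under the stricter filter on low counts (0.0516) and with the 6 compared libraries alone (0.091). The second was lost without kidney 5, 6, 11 or 12 (edgeR adjusted p = 0.114, 0.0583, 0.0657 and 0.0761). Over the 21 alternatives the adjusted p ran from 0.00411 to 0.19 for the first and from 0.00895 to 0.114 for the second. Kidneys 9 and 11 went opposite ways: kidney 9 was the highest of its group, and kidney 11 the lowest of its group. Without both kidneys the changes were -0.82 and -0.57 (edgeR adjusted p = 0.00411 and 0.0262). Its levels ran isotype (76.5 ± 17.7 CPM), sham (57.2 ± 8.99), anti-G-CSFR (52.2 ± 16.9) and anti-C5 (48.9 ± 6.18), each overlapping the next. Markers of stromal cells mostly moved in the direction of the group differences of Serping1, of which that from sham was not called. Of 9 measured fibroblast and mesangial markers 7 rose in isotype against sham and 7 fell under anti-G-CSFR. Under anti-C5 6 fell, or 7 without kidneys 9 and 11. Their sum was 357 to 452, 1022 to 1228, 298 to 626 and 337 to 733 CPM in sham, isotype, anti-G-CSFR and anti-C5 kidneys. Endothelial markers did so in part. Of 10 measured, 4 rose and 1 fell in isotype against sham, and 6 fell and none rose under each antibody, or 4 fell and 1 rose under anti-C5 without kidneys 9 and 11. Their sum was 740 to 827, 832 to 1146, 635 to 817 and 747 to 753 CPM in the same order. By kidney the sums did not all follow Serping1. Kidney 11 had the highest stromal sum of its group (733 CPM) and the lowest Serping1. Kidney 9 was the highest of its group in Serping1 and in both sums (626 and 817 CPM). The part of these cells in Serping1 was not tested.

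The DNA upstream of the start is shown for Itgam, the gene with the largest called changes, and for Cd59a and Cd55, which moved together against it. The sequences are RefSeq's, build GRCm38.p6, for the 250 bases before the start on the gene's strand: chr7:128062390-128062639 (plus strand) for Itgam, chr2:104095551-104095800 (plus strand) for Cd59a and chr1:130462745-130462994 (minus strand) for Cd55. Of the 7 genes 5 had an entry, all but Itgb2 and Serping1. Capitals mark GAGGAA, the core that the myeloid factor PU.1 binds, or TTCCTC, the same letters on the other strand.
Itgam: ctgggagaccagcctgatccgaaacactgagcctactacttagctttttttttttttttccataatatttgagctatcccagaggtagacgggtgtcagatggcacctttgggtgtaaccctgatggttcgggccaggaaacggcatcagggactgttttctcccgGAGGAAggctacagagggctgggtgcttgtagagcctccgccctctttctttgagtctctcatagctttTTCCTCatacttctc
Cd59a: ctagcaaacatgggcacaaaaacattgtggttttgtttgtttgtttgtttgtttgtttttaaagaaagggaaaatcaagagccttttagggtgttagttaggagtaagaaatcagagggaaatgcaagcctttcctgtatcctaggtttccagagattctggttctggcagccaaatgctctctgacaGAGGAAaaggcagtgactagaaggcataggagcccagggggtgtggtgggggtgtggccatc
Cd55: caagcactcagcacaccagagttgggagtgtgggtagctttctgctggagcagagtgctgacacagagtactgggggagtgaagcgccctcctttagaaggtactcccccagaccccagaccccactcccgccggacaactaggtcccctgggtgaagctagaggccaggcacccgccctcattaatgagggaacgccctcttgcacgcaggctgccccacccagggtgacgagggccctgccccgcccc
Itgam held the core at -84 to -79 and, on the other strand, at -15 to -10, counted back from the start, and Cd59a held it at -62 to -57. Cd55, C3ar1 and C5ar1 had none. Each search covered the 250 bases before RefSeq's start, of which 28 in C5ar1 and 4 in C3ar1 lie in an exon that GENCODE gives the gene. Of 32851 promoters searched over the same length 23.3% held it, so a match by itself marks nothing particular to a gene. The other motifs were also searched on both strands. The STAT motif TTCNNNGAA was held by 7.02% of promoters and the C/EBP motif TTGCNNAA by 9.56%, and none of the 5 genes had either. The AP-1 motif TGANTCA, in 6.75% of promoters, was found in C3ar1 alone of the 5, at -22 to -16. The letters TATAAA of the TATA box, in 12.4% of promoters, were likewise found in C3ar1 alone, at -235 to -230. This is a match of letters and does not show a working TATA box.

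For each of the 7 genes, the most similar genes over the 12 kidneys were taken by the smallest root mean square (RMS) difference in log2 CPM, with every gene centred on its own mean. Nearest to Itgam were Vim (RMS 0.28), Actn1 (0.31) and Adam19 (0.32). Among the genes nearest to C5ar1 were Syt12 (0.32) and Ccl9 (0.34), and nearest to Itgb2 were Usp43, Col15a1 and Casp4 (each 0.22). Itgam and Itgb2, the chains of 1 receptor, were further apart (0.73), with 531 genes nearer to Itgam than Itgb2 was. In the other direction 6798 genes were nearer to Itgb2 than Itgam was. The median RMS difference from Itgam to all genes was 1.33. Around their own means the RMS was 1.32 for Itgam and 0.69 for Itgb2, so their distance includes a difference in the size of change. The genes nearest to Cd59a were Fars2, Cox6a1 (both 0.06) and Bnip3l (0.07), and those nearest to Cd55 were Tpd52l1, Herc4 (both 0.09) and Cox5a (0.11). Cd59a and Cd55 differed by 0.16, and 72 genes were nearer to Cd55 than Cd59a was. Serping1 lay nearest to Sparcl1, Sorbs2 (both 0.13) and Lamb2 (0.13), and C3ar1, which varied little, to Mospd3, Cep135 and Zcchc10 (each 0.14). These distances describe 12 kidneys that share their groups, so they carry no test.

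Among 8 other complement receptors 5 had a row, and 2 rose and 1 fell in isotype against sham, with 1 rise and 2 falls under each antibody. Of all genes 32.1% rose and 30.7% fell in isotype against sham, so these counts mark nothing particular to the list. Cd93, a surface glycoprotein of endothelial and myeloid cells, rose from 35.0 ± 4.48 to 93.1 ± 34.6 CPM (log2 1.41 ± 0.26, edgeR adjusted p = 0.00063). It fell under anti-G-CSFR (log2 -1.52 ± 0.26, edgeR adjusted p = 0.000397) and anti-C5 (log2 -1.46 ± 0.26, edgeR adjusted p = 0.000618). Lrp1, a scavenger receptor that pairs with calreticulin in C1q-dependent uptake, rose in the same way (log2 1.64 ± 0.32, edgeR adjusted p = 0.000957), while Calr, calreticulin itself, fell (log2 -0.98 ± 0.17, edgeR adjusted p = 0.000501).

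Of 8 other membrane regulators 3 had a row. Susd4, an inhibitor of C3 convertases, fell from 6.52 ± 0.51 to 3.09 ± 0.31 CPM in isotype kidneys (log2 -1.07 ± 0.21, edgeR adjusted p = 0.000873), as Cd59b did, and both rose under each antibody. Cr1l, which encodes the rodent regulator Crry, instead rose slightly in isotype against sham, from 60.5 ± 4.44 to 71.3 ± 5.82 CPM (log2 0.24 ± 0.09, edgeR adjusted p = 0.0404, and 0.0605 without kidneys 9 and 11). Its differences under the antibodies were -0.10 and -0.09 (edgeR adjusted p = 0.384 and 0.431). The membrane regulators therefore did not all move one way: Cd59a, Cd55, Cd59b and Susd4 fell in isotype against sham, and Cr1l rose.

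Besides Serping1, 5 of 11 fluid-phase regulators had a row, and 2 rose and none fell in isotype against sham. Clu, clusterin, which binds assembling pores and is also a tubule injury gene, rose from 284 ± 47.6 to 2136 ± 602 CPM (log2 2.91 ± 0.68, edgeR adjusted p = 0.00286). Cfp, properdin, which stabilises the alternative convertase and is made by myeloid cells, rose from 1.49 ± 0.30 to 3.08 ± 0.94 CPM (log2 1.05 ± 0.39, edgeR adjusted p = 0.0322). Cfp reached at most 1.75 CPM in sham and 1.82 under anti-G-CSFR, and ran from 1.13 to 3.69 under anti-C5. With every gene's third-highest CPM at 2.01 or more, its row rests mainly on the isotype kidneys (2.27 to 4.11 CPM). Its direction against isotype, and its place in these counts, was thus largely fixed beforehand. Under anti-G-CSFR 2 rose and 1, Clu, fell (log2 -2.02 ± 0.66, edgeR adjusted p = 0.0181). Cfi, factor I, the protease that inactivates C3b, was 1 of the 2 that rose, from 3.08 ± 0.92 in isotype to 6.85 ± 2.21 CPM (edgeR adjusted p = 0.00373). Under anti-C5 against isotype Clu was at -1.54 ± 0.65, Cfi at 0.55 ± 0.28 and Cfp at -0.51 ± 0.38, short of the threshold (edgeR adjusted p = 0.0572, 0.116 and 0.26), as were the other 2. Clu was at 325, 1597 and 283 CPM in kidneys 10, 11 and 12. Without kidneys 9 and 11, Clu and Cfp fell under anti-C5 (log2 -2.80 and -1.12, edgeR adjusted p = 5.9e-06 and 0.0142), and under anti-G-CSFR 1 of the 5 regulators rose and 3 fell.

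The receptors' ligands come from the complement components, of which 15 of 28 had a row, C3 among them and Hc, the gene of C5, not. In isotype against sham 1 rose and 5 fell, beside 32.1% and 30.7% of all genes. Under anti-G-CSFR 6 rose and 1 fell, beside 31.5% and 32%, and under anti-C5 4 rose and 2 fell, beside 30.5% and 29.8%. The counts became 1 and 6 in isotype against sham, and 5 and 2 under anti-G-CSFR, without kidneys 9 and 11. Cfb, factor B of the alternative pathway, fell from 345 ± 39.0 to 142 ± 22.5 CPM (log2 -1.27 ± 0.14, edgeR adjusted p = 1.88e-05). C8a, a chain of the pore component C8, fell from 31.6 ± 3.27 to 1.41 ± 0.28 CPM (log2 -4.47 ± 0.42, edgeR adjusted p = 7.85e-06), and Mbl1, a mannose-binding lectin, from 6.86 ± 1.03 to 0.74 ± 0.46 CPM (log2 -3.17 ± 0.40, edgeR adjusted p = 4.77e-05). All 3 rose under both antibodies. C3 fell from 153 ± 37.5 to 52.4 ± 28.8 CPM (log2 -1.54 ± 0.61, edgeR adjusted p = 0.0444). It rose under anti-G-CSFR (log2 1.92 ± 0.62, edgeR adjusted p = 0.0172), where single kidneys ran from 77.9 to 439 CPM and overlapped isotype. Under anti-C5 C3 was at 72.8 ± 21.1 CPM and was not called against isotype (log2 0.47 ± 0.60, edgeR adjusted p = 0.516). For C3 the values without kidneys 9 and 11 are not given here.

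**Figure D5:**
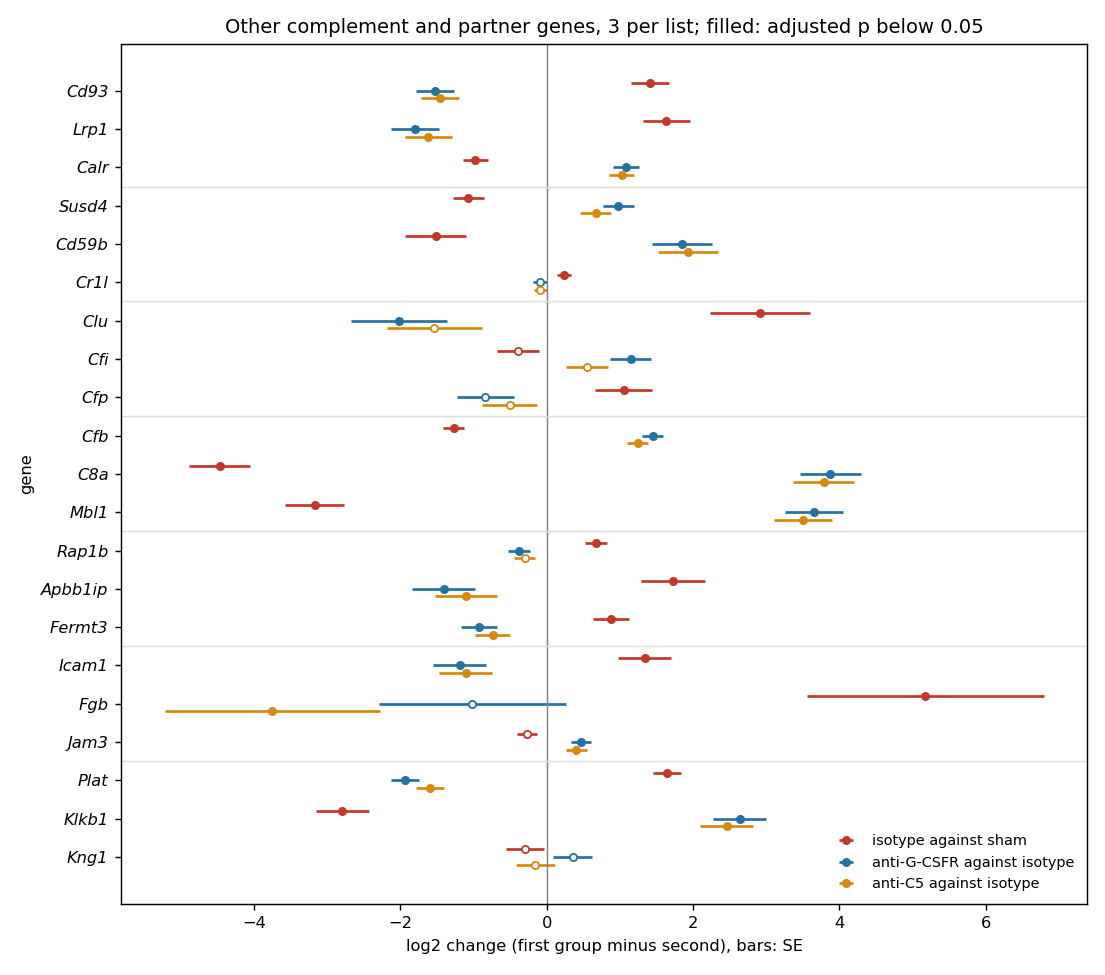
Log2 change (horizontal axis, first group minus second, bars for the SE) of 21 other complement and partner genes (vertical axis), 3 from each of 7 lists separated by gray lines, in the 3 comparisons with the isotype group, where filled points passed the edgeR test at an adjusted p below 0.05. Cd93, Lrp1, Apbb1ip, Fermt3, Icam1 and Plat rose in isotype against sham and fell under both antibodies, and Calr, Susd4, Cd59b, Cfb, C8a, Mbl1 and Klkb1 did the opposite.

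Most measured genes that work with the integrin chains rose in isotype against sham, where 32.1% of all genes rose. Of 9 partners and adaptors 7 had a row, and 5 rose and none fell in isotype against sham, 5 fell under anti-G-CSFR, 3 fell under anti-C5, or 5 without kidneys 9 and 11, with no rise under either antibody. Fermt3, kindlin-3, which activates leukocyte integrins, went from 3.00 ± 0.34 to 5.51 ± 0.73 CPM (log2 0.87 ± 0.24, edgeR adjusted p = 0.0083), and Apbb1ip, the adaptor RIAM, from 1.62 ± 0.35 to 5.38 ± 0.70 CPM (log2 1.72 ± 0.44, edgeR adjusted p = 0.00468). Rap1b, a small GTPase that acts through RIAM, rose from 166 ± 3.24 to 264 ± 7.71 CPM (log2 0.67 ± 0.15, edgeR adjusted p = 0.00213).

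Of 8 ligands of complement receptor 3, 6 had a row, and 4 rose and none fell in isotype against sham, 1 rose and 1 fell under anti-G-CSFR, and 2 rose and 3 fell under anti-C5. The 4 that rose were Icam1 and the fibrinogen chains Fga, Fgb and Fgg, so the count does not stand for 4 separate proteins. Icam2 and Jam3 were not called in isotype against sham (log2 -0.38 and -0.28, edgeR adjusted p = 0.0712 and 0.0985). Icam1, the endothelial and epithelial adhesion molecule, rose from 26.1 ± 3.64 to 66.0 ± 9.12 CPM (log2 1.34 ± 0.36, edgeR adjusted p = 0.00674) and fell under both antibodies. Fgb, a fibrinogen chain, rose from 2.88 ± 2.197 to 105 ± 29.1 CPM (log2 5.17 ± 1.62, edgeR adjusted p = 0.0164). It fell under anti-C5 (log2 -3.75 ± 1.47, edgeR adjusted p = 0.0451), to 2.75, 19.6 and 0.85 CPM in kidneys 10 to 12. Under anti-G-CSFR it was at 1.26, 2.91 and 151 CPM in kidneys 7, 8 and 9, and the difference from isotype missed the threshold (edgeR adjusted p = 0.503). Without kidneys 9 and 11 it was -5.65 and passed (edgeR adjusted p = 1.44e-05), and 2 of the 6 ligands rose and 4 fell under each antibody. Jam3, a junctional adhesion molecule, rose under anti-G-CSFR and anti-C5 (log2 0.47 and 0.41, edgeR adjusted p = 0.0101 and 0.0237).

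C1 inhibitor also holds proteases outside complement, and 3 of 5 genes listed for that system had a row. Plat, tissue plasminogen activator, rose from 67.8 ± 2.61 to 211 ± 7.22 CPM in isotype kidneys (log2 1.64 ± 0.19, edgeR adjusted p = 2.96e-05) and fell under both antibodies. Klkb1, plasma kallikrein, fell from 3.22 ± 0.58 to 0.45 ± 0.25 CPM (log2 -2.79 ± 0.36, edgeR adjusted p = 5.18e-05) and rose under both. Kng1, the kininogen that kallikrein cleaves, passed no test (log2 -0.29 ± 0.26 in isotype against sham, edgeR adjusted p = 0.341).

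The antibody-treated kidneys were also compared with sham and with each other. By edgeR none of the 7 genes and 0% of all genes rose or fell in any of these 3 comparisons. At an unadjusted p below 0.05 edgeR had 207 genes in anti-G-CSFR against anti-C5, 778 in anti-G-CSFR against sham and 1487 in anti-C5 against sham. DESeq2 called 2, 1 and 112 genes, limma-voom none, and no tool called any of the 7. The widest differences among the 7 were those of C5ar1 in anti-C5 against sham (log2 1.34 ± 0.60, edgeR adjusted p = 0.429) and of Itgam in anti-G-CSFR against anti-C5 (log2 -1.03 ± 0.54, edgeR adjusted p = 1). The first was the only 1 of these 21 differences under 0.05 by edgeR before adjustment. Without kidneys 9 and 11 these were 0.20 and -0.25. For Cd59a the antibodies differed from each other by 0.01, with a 95% confidence interval from -0.32 to 0.34, and for Cd55 by -0.06, with an interval from -0.53 to 0.40. A missed threshold with 3 kidneys a group does not show that the antibodies act alike.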

How the data were processed

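Per the labels' protocols, strand-specific libraries of total RNA were read as single ends of 100 bp on an Illumina HiSeq. Per the submitters' processing notes, the authors aligned with TopHat2 2.1.0 and Bowtie2 2.2.5 to GRCm38.p4 and counted with featureCounts. No source used here gives its version, strand setting or annotation. The deposited values are raw read counts, whole numbers, for 13124 genes. The lowest third-highest CPM of any gene was 2.01, a filter read from the values. Symbols were found for 13074 genes through RefSeq (GRCm38.p6), and gene positions come from GENCODE (GRCm38).

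From the counts, edgeR 4.0.16 in R 4.3.3 was run with TMM factors (0.921 to 1.11), filterByExpr, which removed no gene, and the robust form of the quasi-likelihood fit, in which all 12 libraries entered (8 residual degrees of freedom, common biological coefficient of variation 16.4%). The spread between kidneys of a group exceeded sampling noise, with a chi-square per degree of freedom from 5.46 (kidneys 5 and 6) to 65.3 (kidneys 11 and 12). Groups came from the labels, and no kidney number occurs in 2 groups, so nothing is paired. The labels do not say in so many words that each kidney is a separate mouse, and p-values measure the spread between these samples.

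The alternatives were RLE factors, library totals, a filter of 5 CPM in 3 libraries, no filter, DESeq2 1.42.0, limma-voom (limma 3.58.1), a fit without the robust option, the 6 compared libraries, no kidneys 9 and 11, and each library left out. The 7 genes, the gene lists and the test were chosen with earlier results of these data known. From each complement list the 3 genes with the smallest p over the 4 groups were named, from each marker list the 2 with the highest mean CPM, and for each of the 7 genes the 3 nearest (log2 CPM, prior count 2). For C5ar1, 1 of these 3 is not reported here. Names outside the rule, among them Itgax and the other listed genes given with a value, were chosen after their values were seen, as were the neutrophil sum without Lcn2 and the values of listed genes without kidneys 9 and 11.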

Additional observations from a re-analysis of the deposited data

How the results depend on the processing

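The 42 changes of the 7 genes, 15 of them called, were recomputed under 21 alternatives, giving 876 values; C3ar1 has none under the stricter filter. Of these 820 kept direction and side of the threshold, 14 lost their call, all of Serping1, 11 gained one and 31 changed sign. No called change changed sign. Without kidneys 9 and 11, the uncalled changes that turned were, in anti-G-CSFR against anti-C5, C3ar1 (0.12), Cd59a (-0.035), Cd55 (0.003) and Serping1 (-0.26), and in anti-C5 against sham Itgam (-0.60) and Itgb2 (-0.17). With library totals Cd59a turned in anti-G-CSFR against anti-C5 (-0.016). The cause was not tested.

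Leaving out each library in turn, uncalled changes that turned ranged as follows. In anti-G-CSFR against anti-C5 C5ar1 ran from -1.26 to 0.35, C3ar1 from -0.14 to 0.10, Itgam from -1.38 to 0.058, Itgb2 from -0.79 to 0.10, Cd59a from -0.15 to 0.18, Cd55 from -0.27 to 0.16 and Serping1 from -0.19 to 0.24. In anti-G-CSFR against sham C3ar1 ran from -0.27 to 0.12, Itgb2 from -0.33 to 0.12, Cd55 from -0.14 to 0.30 and Serping1 from -0.42 to 0.008. In anti-C5 against sham C3ar1 ran from -0.25 to 0.13, Itgam from -0.60 to 0.84, Itgb2 from -0.17 to 0.69, Cd59a from -0.013 to 0.32 and Cd55 from -0.072 to 0.29. No paired analysis was possible because the groups share no kidney number. The lowest counts in single libraries were those of C5ar1, C3ar1 and Itgam, at 16 to 190, 29 to 67 and 28 to 536 per library.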
